A study of Homo sapiens with 3 samples.

Results

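The A549 and HBE cell lines were compared gene by gene in the LIEA (low-input equal amplification) libraries, in which Ion Torrent reads of about 10 pg of polyA+ mRNA are counted per gene. A gene was kept if its log2 rpkM (reads normalised to transcript length and to all mapped reads, on a log2 scale as deposited) reached 1 in at least 1 of both LIEA libraries, and 12239 of the 18856 genes listed in the series passed. Of the kept genes, 9624 reached this value in both lines, 1255 in HBE alone and 1360 in A549 alone. A gene without a row in a library was taken as not detected. It was set at 3 reads there, so that its ratio is a lower bound written as "at least". The bound compares the libraries, and a gene without a row may still be expressed in the line. The 126 kept genes with 3 reads or fewer in both libraries were given no ratio, which left 12113 genes to compare. Just inside the limit lay SUCLG2-AS1 at 1.0006, ZNF2 at 1.0013 and ADAT3 at 1.0021, and just outside it SLC2A4 at 0.9996, OTUD3 at 0.9968 and FUT6 at 0.9965.

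A549 is a human lung adenocarcinoma line. It is known to carry an inactivating mutation of KEAP1, the protein that marks the transcription factor NRF2 for degradation, and NRF2 drives genes of glutathione, NADPH and quinone metabolism. HBE is a human bronchial epithelial line. In the bronchus, basal cells express keratins of stratified epithelium and form desmosomes, whereas alveolar type 2 cells secrete surfactant, and a cell line keeps such a programme only in part. Each line stands for 1 culture, its mRNA was diluted from a bulk preparation, and neither was treated. The series holds 3 libraries, and besides the 2 LIEA ones HBE mRNA was also sequenced on Illumina after Smart-seq2, a method that amplifies full-length cDNA. The latter was used here only to see whether its HBE value lay nearer to HBE LIEA or to A549 LIEA.

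There was 1 library on each side, so no difference could be set against a spread between replicates and no test was possible. Cell line, culture and library cannot be told apart. The mapped reads behind the values were 4605855 for HBE LIEA, 4154060 for A549 LIEA and 9845150 for HBE Smart-seq2. Intervals in the text are exact 95% Clopper-Pearson intervals of the ratio of reads. They cover the counting error of reads only. PCR copies are not independent molecules, so the intervals can be too narrow even for the sampling of molecules. A kept gene counted as higher in 1 line if its rpkM was at least 4-fold that of the other.

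The labels were first checked against cell type markers. Of 8 markers of basal airway cells, 7 were kept and all 7 were at least 4-fold higher in HBE. Their summed rpkM over the whole list was 2375 in HBE LIEA, 7363 in HBE Smart-seq2 and 13.9 in A549. KRT17 alone, a keratin of basal and stressed epithelium, was at 1097 rpkM in HBE and 1.99 in A549, a 552-fold difference (interval 323 to 1037). TP63, the master regulator of basal cells, was at 31.2 rpkM in HBE and 4.41 in A549. HBE thus carried a basal profile in both methods. Markers of simple epithelium were split. KRT8 and KRT18, keratins of such cells, were higher in A549, with KRT8 at 3957 and KRT18 at 4302 rpkM, against 506 and 743 in HBE. The list of 6 simple epithelium markers summed to 10561 rpkM in A549 and 2387 in HBE, and 3 of the 6, KRT19, CDH1 and EPCAM, had a ratio below 0. Of 8 alveolar type 2 markers, 5 were listed and 1 was kept, the lipid transporter ABCA3 at 13.9 rpkM in A549 and 2.39 in HBE. SFTPB, a surfactant protein gene, had 20 reads in A549 and 21 in HBE, and the other listed markers of this type had 7 reads or fewer in A549. The alveolar origin of A549 was therefore hardly visible in these markers. Among markers of other cells, the summed rpkM of the leukocyte list was 54.6 in A549 and 50.2 in HBE, and the 3 kept genes of it, CD68, CD14 and LYZ, were all less than 4-fold apart. PTPRC, which defines leukocytes, had 2 reads in A549 and none in HBE. The fibroblast list summed to 4.21 rpkM in A549 and 6.45 in HBE, and the endothelial list to 0.904 and 12.6. CDH5, an endothelial cadherin, gave most of the latter with 103 reads in HBE, 0 in A549 and 8.86 rpkM in HBE Smart-seq2. Ciliated cell markers summed to 29.5 rpkM in A549 and 3.51 in HBE, and of the 2 kept TPPP3, a tubulin-binding protein, was higher in A549, while the ciliogenesis factor FOXJ1 had 8 reads in HBE and none in A549. No red cell marker was listed. In libraries of bulk mRNA, fewer cells that express a gene and less RNA per cell cannot be told apart.

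The larger part of the expressed genes lay close together. The log2 ratio of A549 over HBE had a median of -0.15 (quartiles -0.84 and 0.64), and 7384 genes (61.0%) were within 2-fold. At least 4-fold higher in A549 were 1155 genes (9.54%), and 891 (7.36%) were at least 4-fold higher in HBE. These percentages are the background against which the gene lists are read. In every list, the filter fixes the direction of a gene that reached the limit for keeping in 1 line alone. It does not fix the size of the ratio. With a limit of 2-fold the shares were 18.7% and 20.4%, and with 8-fold 5.81% and 4.23%. In 273 of the 1155 and 150 of the 891 genes, the gene was not listed in the lower library. The highest rpkM in HBE belonged to GAPDH with 7193, followed by MIR6723 with 5042 and ACTB with 3960, and in A549 to the ferritin light chain FTL with 18220, MIR6723 with 14817 and GAPDH with 5785. The rank of MIR6723 rests on a short length, since it had 2067 reads in HBE and 5478 in A549, against 49464 and 35876 for GAPDH. It had no position in the annotation used, and the origin of its reads was not tested. ACTB, cytoskeletal actin, differed by 1.05-fold and GAPDH, the glycolytic enzyme, by 1.24-fold, both lower in A549. Protein-coding genes made up 1053 of the genes higher in A549 and 811 of those higher in HBE. Of 284 kept long non-coding RNAs, 49 were higher in A549 and 33 in HBE.

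**Figure D1:**
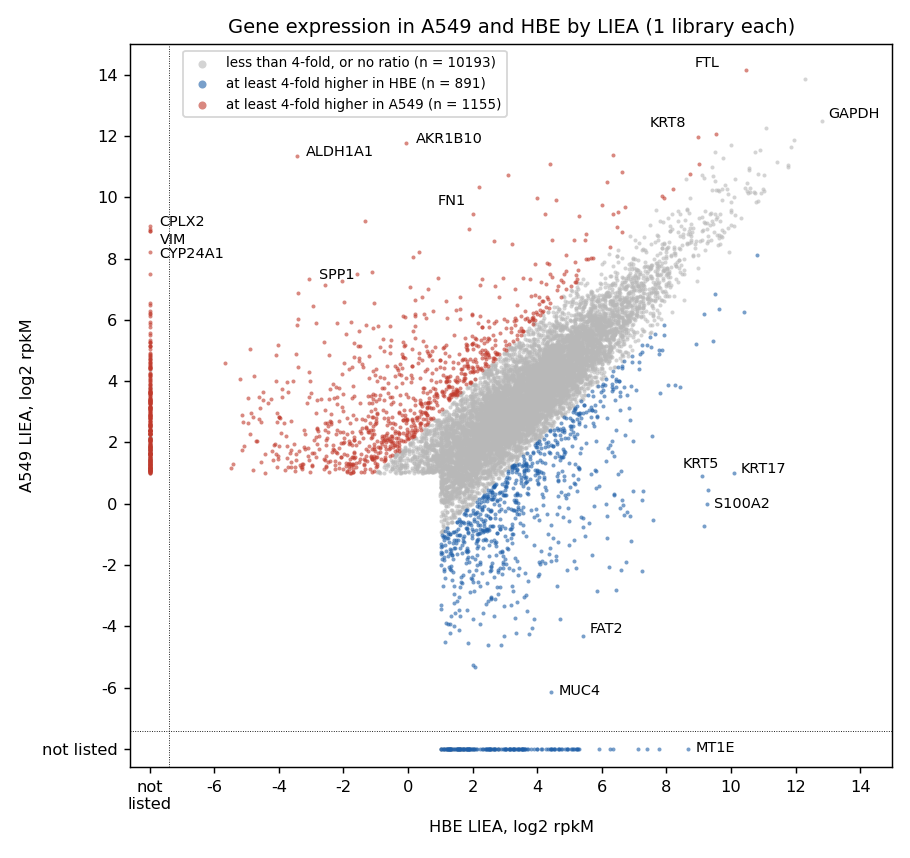
Each point is a kept gene, with log2 rpkM in HBE LIEA on the x axis and in A549 LIEA on the y axis, and genes without a row in a library on the dotted margins. Most points follow the diagonal, while 1155 genes (red) lie at least 4-fold above it and 891 (blue) at least 4-fold below it, among them ALDH1A1 and AKR1B10 in A549 and KRT17 and MUC4 in HBE. Genes of the Y chromosome and XIST are not drawn, though the numbers were counted with them.

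The HBE Smart-seq2 library, made by a different method from the same line, was nearer to HBE LIEA than to A549 LIEA for 1055 of the 1155 genes higher in A549 (91.3%, 95% Wilson interval over genes 89.6 to 92.8). For the 891 genes higher in HBE it was nearer to HBE LIEA for 646 (72.5%, 69.5 to 75.3). Both intervals take the genes of 1 library as independent, which they are not, and measure no spread between libraries. A gene without a row in Smart-seq2 was taken as not detected there as well. Among genes higher in A549 this counts as nearer to HBE LIEA, as for VIM, FCGBP and LBH. Among genes higher in HBE it tends to count as nearer to A549 LIEA. The gap between both shares is thus partly built in, and how much of it was not tested. Over all kept genes the share was 62.1%. The share grew with the size of the difference. Among genes higher in A549 it went from 56.9% below 0.5 on the log2 scale to 97.4% at 6 and over, and among genes higher in HBE from 52.7% to 93.8%. Among genes at least 4-fold apart, those higher in HBE by 2 to 4 on the log2 scale were the least shared by the second method, with 64.9% and 65.7% in the classes of that range. The 245 genes higher in HBE on whose side Smart-seq2 did not lie had a median GC content of 55.9%, against 50.6% for the other 646, and the part of GC content in this was not tested. MMP14, MUC2, IL11 and C3, each described further on, were among them.

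**Figure D2:**
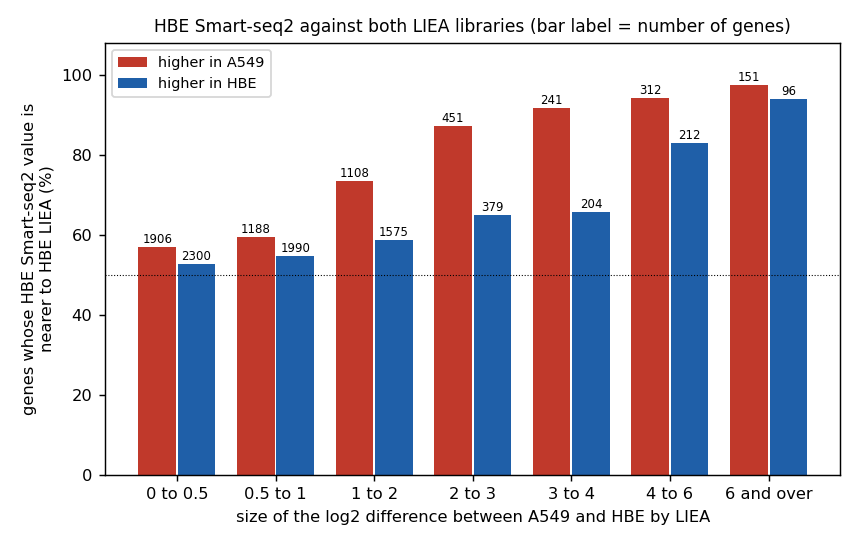
Bars give the percent of genes whose HBE Smart-seq2 value lay nearer to HBE LIEA than to A549 LIEA, by the absolute log2 difference between both LIEA libraries, in red for genes higher in A549 and blue for genes higher in HBE, with the number of genes above each bar. The red bars reach 97.4% and the blue bars 93.8% in the last class, and the blue bars of the middle classes stay near 65%. Genes without a row in Smart-seq2 were taken as not detected there, which favours the red bars over the blue ones.

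The 25 leading genes of A549, ranked by ratio among those with at least 50 reads, were nearly silent in HBE. ALDH1A1, a retinaldehyde dehydrogenase, had 25893 reads (2631 rpkM) in A549 and 1 read (0.0916 rpkM) in HBE, a ratio of 28709 with an interval of 5152 to 1133993. HBE Smart-seq2 gave 0.943 rpkM. CPLX2, a complexin of vesicle fusion, was at 528 rpkM in A549 and not listed in HBE, at least 3834-fold higher. AKR1B10, an aldo-keto reductase of aldehydes and retinal, was at 3469 rpkM in A549 and 0.952 in HBE, a 3643-fold difference (1768 to 9062). CYP24A1, the enzyme that inactivates vitamin D, was at 482 rpkM in A549 and not listed in HBE, at least 2415-fold higher. VIM, the intermediate filament vimentin, reached 482 rpkM in A549 as well and was listed in neither HBE library, which puts it at least 1581-fold higher in A549. SPP1, the secreted phosphoprotein osteopontin, had 1210 reads in A549 and 1 in HBE, a ratio of 1342 (240 to 53034). In each of these genes the HBE values of both methods lay far below A549.

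Several other leading genes encode surface and secreted proteins. CEACAM6, a surface glycoprotein of adenocarcinomas, was at 139 rpkM in A549 and 0.167 in HBE, a ratio of 835 (231 to 6900), with 1.76 in HBE Smart-seq2. CDH17, a cadherin of intestinal epithelium, had 440 reads in A549 and 1 in HBE. PAPPA, a protease that cleaves IGF-binding proteins, had 1093 reads against 1, and NRCAM, a neuronal adhesion molecule, 884 against 1. Neither was listed in HBE Smart-seq2. FCGBP, a mucin-like protein, and LBH, a transcriptional cofactor, had 2413 and 1133 reads in A549 and were listed in neither HBE library. Of the 25, MYADM, a myeloid-associated membrane protein, was the exception to the side of Smart-seq2, with 154 rpkM in A549, 0.242 in HBE LIEA and 8.64 in HBE Smart-seq2. The remaining ones were AKR1B15, TM4SF20, COL5A2, VTN, CACNA1H, CTGF, NLRP2, NPY4R, CNNM1, CLDN2, FOSB and BAMBI.

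On the side of HBE, the 25 leading genes included surface proteins, a protease and non-coding RNAs. MUC4, a membrane mucin of airway epithelium, had 1655 reads (21.4 rpkM) in HBE and 1 in A549, a ratio of 1493 (268 to 58992), though HBE Smart-seq2 gave 1.85 rpkM. LY6D, a surface protein of squamous cells, was at 578 rpkM in HBE and 0.600 in A549, and HBE Smart-seq2 gave 255. ST14, the protease matriptase, was at 150 rpkM in HBE and 0.219 in A549, a 686-fold ratio (234 to 3329). S100A2, a calcium-binding protein of basal cells, was at 617 rpkM in HBE and had 4 reads in A549, 617-fold (241 to 2265). H19, an imprinted non-coding RNA, was at 621 rpkM in HBE LIEA, 32.8 in HBE Smart-seq2 and 1.36 in A549. A second non-coding RNA, UCA1, had 873 reads in HBE and none in A549. For MUC4 and H19 both HBE values lay more than an order of magnitude apart, while A549 was below either.

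The other leading genes of HBE were of several kinds. FAT2, a giant protocadherin, had 2896 reads in HBE and 3 in A549, a ratio of 871 (298 to 4224). CDH3, P-cadherin of basal cells, was at 95.9 rpkM in HBE LIEA, 84.8 in HBE Smart-seq2 and 0.225 in A549. CD74, the invariant chain of MHC class II, had 679 reads in HBE and 1 in A549. CCND2, cyclin D2, had 925 reads in HBE and was not listed in A549, at least 278-fold higher. PRDX2, a peroxiredoxin of red cells and many other cells, was at 191 rpkM in HBE LIEA, 206 in HBE Smart-seq2 and 0.696 in A549 from 1 read, a ratio of 274 (48.8 to 10865). SOX7, a SOX transcription factor, was at 26.2 and 0.0734 rpkM, but 39.5% of its longest transcript is shared with PINX1 at 95% identity or more. All 25 leading genes of HBE had their Smart-seq2 value nearer to HBE LIEA. ATP2C2, DMBT1, IRX2, KRT5, KRT17, MT1E, TINAGL1, HS6ST2, CLCA2, SLC1A3 and S100A14 were others of this set.

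**Figure D3:**
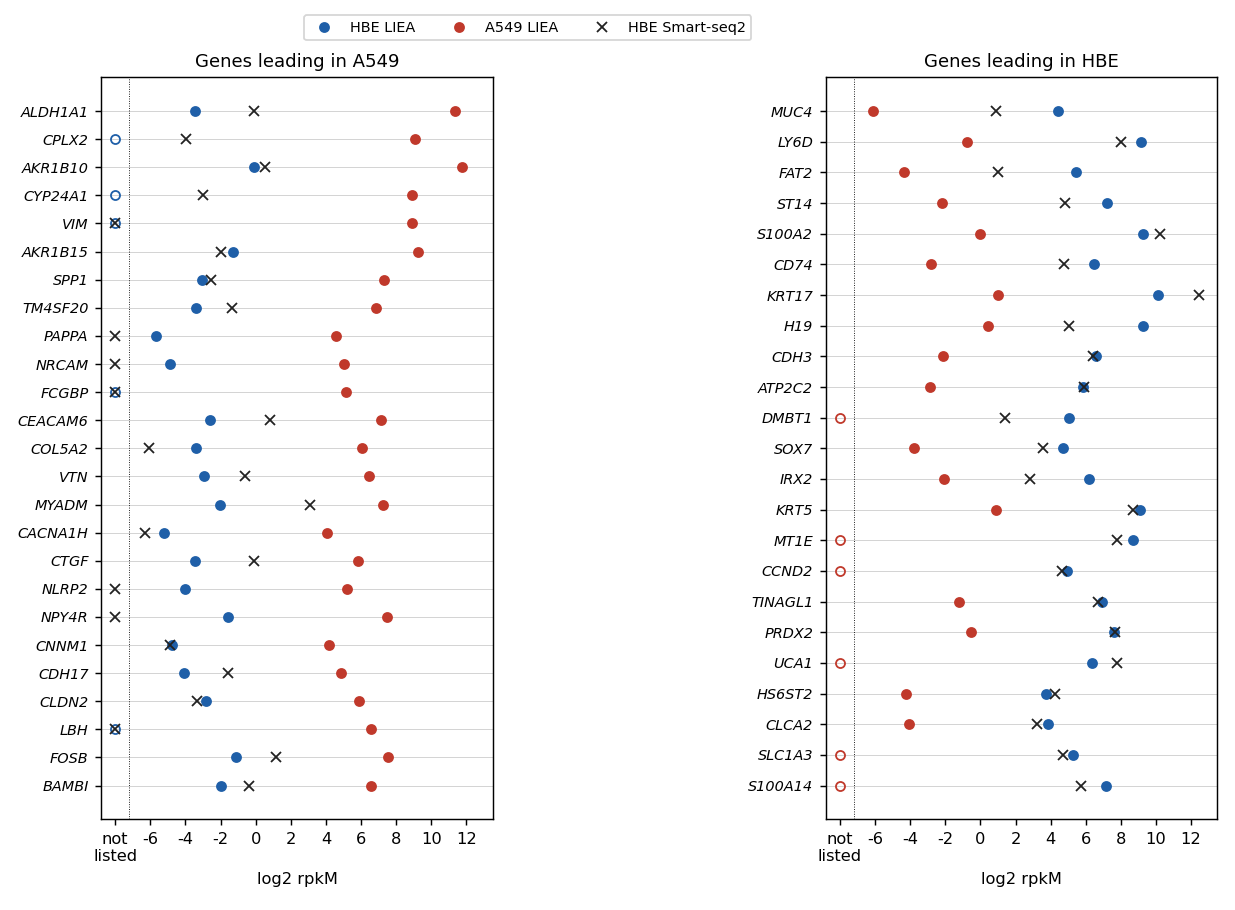
Log2 rpkM of the 25 leading genes of A549 (left) and 23 of those of HBE (right) in HBE LIEA (blue), A549 LIEA (red) and HBE Smart-seq2 (cross), with open circles or crosses at the left margin for genes not listed. Blue points and crosses lie together and away from red for most genes, with MUC4, FAT2, H19 and MYADM among those where both HBE libraries lie apart.

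Genes of the NRF2 target list leaned towards A549, though PRDX2, a peroxiredoxin gene outside it, was higher in HBE. The list was chosen with earlier results of these data known. All 32 genes of the list were kept. Of these, 20 were at least 4-fold higher in A549 and none in HBE, beside 9.54% and 7.36% over all genes. The lowest log2 ratio was 0.01, in the heme transporter gene SLC48A1. The median log2 ratio was 3.13, beside -0.15 over all genes, and the summed rpkM was 41863 in A549, 3962 in HBE LIEA and 10200 in HBE Smart-seq2. Smart-seq2 lay nearer to HBE LIEA for 19 of the 20, the exception being FTH1. Upstream of 3 of these genes, TXNRD1, PGD and GPX2, the core of the antioxidant response element was found, which is the sequence NRF2 binds with its small MAF partners. They are printed to show these letters in genes of the list with large ratios. The sequences are the 250 bases before the start in RefSeq (GRCh38.p14), 5′ to 3′ on the strand of the gene, with TGACNNNGC or its reverse complement GCNNNGTCA in capitals.
TXNRD1, chr12:104215529-104215778, plus strand: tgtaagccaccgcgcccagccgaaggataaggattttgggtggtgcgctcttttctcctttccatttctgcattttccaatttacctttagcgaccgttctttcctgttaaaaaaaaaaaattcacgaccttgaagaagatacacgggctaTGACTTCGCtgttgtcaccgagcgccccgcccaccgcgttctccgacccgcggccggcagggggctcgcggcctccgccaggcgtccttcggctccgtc
PGD, chr1:10398814-10399063, plus strand: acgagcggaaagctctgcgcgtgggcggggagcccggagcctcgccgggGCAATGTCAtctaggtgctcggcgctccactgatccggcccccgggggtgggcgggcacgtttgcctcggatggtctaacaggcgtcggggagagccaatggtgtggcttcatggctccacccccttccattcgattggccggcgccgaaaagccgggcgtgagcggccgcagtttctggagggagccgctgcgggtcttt
GPX2, chr14:64942746-64942995, minus strand: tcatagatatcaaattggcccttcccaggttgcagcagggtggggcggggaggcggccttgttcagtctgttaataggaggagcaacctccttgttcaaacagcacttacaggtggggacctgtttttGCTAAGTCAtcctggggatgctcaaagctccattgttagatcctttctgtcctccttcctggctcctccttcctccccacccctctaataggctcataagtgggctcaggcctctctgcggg

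In the window from 250 bases before to 50 after the start, searched on both strands, TXNRD1 held a further match that runs over the start. The motif was in 7 of the 23 list genes with a promoter in the table (30.4%), in 13.6% of all 27195 promoters and in 15.1% of those of kept genes. Of the 13 matched genes of the list that were at least 4-fold higher in A549 it was in 3, and of the other 10 in 4. Among all genes at least 4-fold higher in A549 the share was 13.3%, and among those higher in HBE 13.7%. A match describes these letters and not a bound site.

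The genes of the list fell into the known branches of the response. For iron, FTL was at 18220 rpkM in A549 and 1424 in HBE, 12.8-fold (12.5 to 13.1), and HMOX1, heme oxygenase, at 163 and 1.91, 85.5-fold (50.7 to 157). FTH1, the ferritin heavy chain, was at 2164 rpkM in A549 LIEA and 521 in HBE LIEA but 5128 in HBE Smart-seq2. A549 has no Smart-seq2 library, so a difference between the lines by that method is not known. For NADPH, PGD of the oxidative pentose phosphate pathway was at 1456 against 71.4 rpkM, 20.4-fold (18.8 to 22.1). TKT and TALDO1 of the non-oxidative branch were 3.12-fold and 1.91-fold higher, below the limit of 4. PGD thus had a larger ratio than either of them.

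For thiols, TXNRD1, thioredoxin reductase, was at 390 rpkM in A549 and 44.3 in HBE, 8.82-fold (8.22 to 9.47). GPX2, a glutathione peroxidase of epithelia, was at 1020 and 15.9 rpkM, 64.0-fold (52.3 to 79.2), and SRXN1, sulfiredoxin, at 182 and 20.9. GCLC and GCLM, the subunits of the enzyme that limits glutathione synthesis, were 3.29-fold and 2.72-fold higher, and SLC7A11, the cystine transporter, 2.33-fold. TXN and PRDX1 were 2.10-fold and 2.41-fold higher in A549 than in HBE LIEA. Their Smart-seq2 values in HBE, 942 and 1099 rpkM, were above the 260 and 633 of A549 LIEA, but there line and method differ together. For quinones and export, NQO1 was at 697 and 82.0 rpkM, 8.49-fold (7.94 to 9.09). ABCC3 and ABCC2, pumps for conjugates, were 38.4-fold and 21.4-fold higher in A549. The regulators themselves did not differ by much in mRNA. NFE2L2, which encodes NRF2, was at 27.4 rpkM in A549 and 26.8 in HBE, and KEAP1 at 70.3 and 57.1. KEAP1 and NFE2L2 were looked up after the list had been seen.

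Enzymes of aldehydes, drugs and steroids were the next group. Of 24 kept aldo-keto reductases and aldehyde dehydrogenases, 10 were at least 4-fold higher in A549 and 2, ALDH1A3 and ALDH3B2, in HBE (median log2 ratio 1.39). Of the 10, AKR1B10, AKR1C1, AKR1C2, AKR1C3 and ALDH3A1 belong to the NRF2 list as well. Smart-seq2 was nearer to HBE LIEA for all 12. AKR1C3, a prostaglandin and steroid reductase, was at 2189 rpkM in A549 and 20.9 in HBE, 105-fold (87.2 to 126). AKR1C1 and AKR1C2 were 32.8-fold and 40.1-fold higher, but 99.8% of the AKR1C2 transcript is shared with AKR1C1, so the split between them is uncertain. In the same way AKR1B15, at 600 and 0.401 rpkM, shares 20.3% of its transcript with AKR1B10. The AKR1C genes lie side by side on chromosome 10 and the AKR1B pair on chromosome 7. ALDH3A1, an aldehyde dehydrogenase of cornea and lung tumours, was at 1691 and 8.45 rpkM, 200-fold (160 to 255). Summed over this list, rpkM was 16099 in A549, 836 in HBE LIEA and 1719 in HBE Smart-seq2.

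Of 16 kept cytochrome P450 genes, 7 were higher in A549 and 2, CYP1A1 and CYP27B1, in HBE. A log2 rpkM of 1 was reached by 8 of the 16 in HBE and by 14 in A549, so these counts follow in part from the filter. CYP27B1, which activates vitamin D, thus had the opposite direction to CYP24A1. CYP1B1, a P450 of polycyclic hydrocarbons and estrogens, was at 20.6 rpkM in A549 and 0.801 in HBE, 25.7-fold (16.3 to 43.2). CYP2S1, a P450 of epithelia, was at 65.8 and 7.87 rpkM and CYP4F3, which hydroxylates leukotrienes, at 18.4 and 2.11. CYP4F3 shares 38.9% of its transcript with CYP4F2. Among 22 kept conjugating enzymes, 7 were higher in A549 and 3 in HBE. UGT1A1, the bilirubin glucuronosyltransferase, was at 12.5 rpkM in A549 and not listed in HBE, at least 45.1-fold higher. SULT2B1, a cholesterol sulfotransferase, was at 49.2 rpkM in A549, 0.347 in HBE LIEA and 4.38 in HBE Smart-seq2. GSTT1 and GSTT2, theta-class glutathione transferases, went the other way with 124 and 83 reads in HBE against 0 and 1 in A549. GSTT1 was at 25.4 rpkM in HBE LIEA and 27.9 in HBE Smart-seq2, at least 37.3-fold above A549. GSTP1, the most abundant member, differed by 1.16-fold.

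Keratins went both ways. Of 18 kept, 5 were at least 4-fold higher in A549 (KRT4, KRT8, KRT10, KRT18 and KRT20) and 6 in HBE (KRT5, KRT6A, KRT6B, KRT14, KRT15 and KRT17). KRT5, the basal keratin, was at 552 rpkM in HBE LIEA, 407 in HBE Smart-seq2 and 1.88 in A549, 293-fold (185 to 495). KRT8 differed by 7.82-fold (7.59 to 8.05) and KRT18 by 5.79-fold (5.62 to 5.97) in the other direction, and KRT7, also of simple epithelium, by 2.96-fold. KRT18 in HBE Smart-seq2, at 1813 rpkM, was nearer to the 4302 of A549 than to the 743 of HBE LIEA on the log2 scale. KRT4, of stratified mucosa, was at 57.2 rpkM in A549 and 0.404 in HBE LIEA, 141-fold (54.9 to 521). Its value in HBE Smart-seq2, 5.30 rpkM, was slightly nearer to A549 on the log2 scale. KRT6A and KRT6B, with 99.8% and 82.1% of their transcripts shared with close copies, cannot be told apart well.

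Of 31 kept junction genes, 12 were at least 4-fold higher in HBE and 3 in A549, with a median log2 ratio of -1.02. Desmosome genes were among the 12. DSG3, a desmoglein of stratified epithelium, was at 17.5 rpkM in HBE and 0.347 in A549, 50.5-fold (25.4 to 118), and DSP, desmoplakin, at 97.4 and 22.5. PKP3, a plakophilin, was at 217 and 32.5 rpkM. Tight junction claudins went both ways. CLDN7 was at 156 rpkM in HBE LIEA, 302 in HBE Smart-seq2 and 1.32 in A549, 118-fold (65.8 to 237), and CLDN4 at 93.4 and 8.41. CLDN2, a pore-forming claudin, was at 60.3 rpkM in A549 and 0.138 in HBE from 2 reads, a ratio of 437 (121 to 3618). GJA1, a connexin of gap junctions, was at 22.0 rpkM in A549 and not listed in HBE, at least 107-fold higher. CDH1, E-cadherin, was 2.95-fold higher in HBE and EPCAM, an epithelial adhesion molecule, 7.84-fold (5.21 to 12.3). JUP, plakoglobin, was the most abundant member, at 366 rpkM in A549 and 246 in HBE.

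Mesenchymal genes were more often higher in A549, with 9 of 22 kept, against 3 in HBE (median log2 ratio 1.40). VIM had 4279 reads against none. FN1, fibronectin, was at 698 rpkM in A549 and 4.02 in HBE, 174-fold (149 to 204). S100A4, a calcium-binding protein of motile cells, was at 1295 and 4.62 rpkM, 280-fold (160 to 543). CTGF, a matricellular growth factor, had 557 reads in A549 and 1 in HBE, a ratio of 618 (110 to 24436). The regulators of the epithelial-mesenchymal transition were low. ZEB1 and TWIST1 had 14 and 18 reads in A549 and none in HBE, and SNAI1 was at 7.06 and 1.27 rpkM. SNAI2 went the other way, with 32 reads in HBE and none in A549, and 39.3 rpkM in HBE Smart-seq2. CDH2, N-cadherin, differed by 1.17-fold. TNC, tenascin, had 639 reads in HBE and 7 in A549. MMP14, a membrane metalloproteinase, was 68.9-fold (36.1 to 151) higher in HBE, although it had 9.61 rpkM in HBE Smart-seq2 beside 83.1 in HBE LIEA.

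Collagens, laminins and integrins went both ways. Of 20 kept collagens, 6 were higher in A549 and 4 in HBE (median log2 ratio -0.51). COL17A1, the hemidesmosomal collagen of basal cells, was at 104 rpkM in HBE and 0.772 in A549, 134-fold (84.7 to 227). COL5A2, a fibrillar collagen, had 1898 reads in A549 and 3 in HBE, a ratio of 701 (240 to 3405), and COL6A1 had 118 against none. Among 22 kept laminins and integrins, 7 were higher in HBE and 3 in A549 (median -0.91). LAMB3, a chain of the laminin under basal cells, and ITGA6, a hemidesmosome integrin chain, were among the 7. ITGB6, of the epithelial integrin that activates TGF-beta, had 102 reads in HBE and 3 in A549, a ratio of 30.7 (10.2 to 151). ITGB5, a vitronectin receptor chain, was 4.32-fold higher in A549 at 329 rpkM. Its ligand VTN, vitronectin, was at 87.4 rpkM in A549 and 0.129 in HBE from 1 read, a ratio of 675 (121 to 26714).

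Transcription factors of the foregut separated both lines. Of 24 kept, 8 were higher in A549 and 7 in HBE. In A549 these included factors of liver and gut. FOXA2, at 26.5 rpkM in A549, was not listed in either HBE library, and HNF4A was at 18.5 rpkM in A549 and 0.496 in HBE LIEA. ID2, an inhibitor of basic helix-loop-helix factors, was at 93.0 and 0.478 rpkM, 195-fold (66.3 to 947). In HBE, GRHL2, a grainyhead factor of epithelial junctions, was at 21.4 rpkM in LIEA and 9.71 in Smart-seq2 and not listed in A549, at least 155-fold higher. IRX2, an Iroquois factor, had 1042 reads in HBE and 3 in A549, a ratio of 313 (107 to 1522). TP63 was 7.07-fold higher (5.67 to 8.91). NKX2-1, the factor of alveolar identity, was not kept, with 1 read in HBE and none in A549. ELF3, an epithelial ETS factor, was the most abundant member at 286 rpkM in A549 and 75.3 in HBE.

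HOX genes, which encode positional identity, divided by cluster. Of 23 kept, 9 were higher in A549 and 5 in HBE. A log2 rpkM of 1 was reached by 12 of the 23 in HBE and by 18 in A549. For genes kept through 1 line alone, the filter fixes the direction. All 8 kept coding genes of the HOXB cluster on chromosome 17 were among the 9. HOXB5 and HOXB8 had 92 and 91 reads in A549 and were listed in neither HBE library, so that they were at least 34.0-fold and 33.6-fold higher. HOXB3 had 116 reads in A549 and 1 in HBE, a ratio of 129 (22.6 to 5123). HOXB7, the most abundant, was at 27.7 rpkM in A549 and 5.25 in HBE, 5.28-fold (3.61 to 7.93). The HOXA cluster went mostly the other way, with HOXA2, HOXA3, HOXA6, HOXA9 and HOXA11 higher in HBE and HOXA7 in A549. HOXA3 was at 16.9 rpkM in HBE LIEA, 3.90 in A549 and 3.77 in HBE Smart-seq2. Its HBE level was thus not shared by the second method, and the same held for HOXA2 and HOXA6. Levels of the whole family were low, with summed rpkM of 139 in A549, 73.3 in HBE LIEA and 45.2 in HBE Smart-seq2.

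Of 14 kept genes for proteins that the liver secretes into plasma, 12 were higher in A549 and 1, complement C3, in HBE, and the median log2 ratio was 4.70. Only C3 reached a log2 rpkM of 1 in HBE, so the other 13 were kept through A549 alone. The filter fixes their direction, though not the size of their ratios. With both libraries at this value, C3 alone was left. The 3 fibrinogen chains, coagulation proteins whose genes lie together on chromosome 4, were found in A549 with FGA at 54.8 rpkM, FGG at 35.5 and FGB at 19.6. FGA was listed in neither HBE library and was at least 307-fold higher. FGG was at least 96.1-fold higher, and FGB had 295 reads against 2, a ratio of 164 (44.9 to 1357). APOE, APOH and AMBP had 49, 42 and 39 reads in A549 and none in HBE. The main plasma proteins themselves were hardly present, since ALB and TTR had 2 reads and 1 read in A549. C3 was at 98.9 rpkM in HBE LIEA, 21.6 in A549 and 30.8 in HBE Smart-seq2, so the other HBE library lay nearer to A549.

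Secreted mucins were few. MUC5B, a gel-forming airway mucin, had 4964 reads (66.7 rpkM) in A549 and 122 (1.48 rpkM) in HBE, 45.1-fold (37.7 to 54.4). MUC2, the intestinal gel-forming mucin, was at 5.24 rpkM in HBE LIEA, 0.698 in A549 and 0.554 in HBE Smart-seq2. BPIFA1, a secreted defence protein of upper airways, had 114 reads in HBE and none in A549, at least 34.3-fold higher, but its Smart-seq2 value of 1.60 rpkM was nearer to A549. Of 9 kept genes of this list, 3 were higher in each line.

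Proteases, inhibitors and inflammatory mediators were more often higher in HBE. Of 29 kept kallikreins, serpins and epithelial proteases, 13 were higher in HBE and 4 in A549 (median log2 ratio -1.06). SERPINB5, maspin, was at 27.5 rpkM in HBE LIEA and 282 in HBE Smart-seq2 and not listed in A549, at least 100-fold higher. SERPINB3, a squamous cell antigen, had 209 reads against none, but its transcript is shared wholly with SERPINB4. SERPINB7 had 106 reads against 1, and these clade B serpin genes lie together on chromosome 18. SERPINB2, also of clade B, was listed in neither LIEA library but had 5488 reads in HBE Smart-seq2. PRSS8, the serine protease prostasin, and SPINT1, an inhibitor of matriptase, were in the same group as ST14. SPINT2, the most abundant member, differed by 1.24-fold.

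Among 18 kept chemokines and cytokines, 6 were higher in HBE, all of them interleukins or the interleukin antagonist IL1RN, and 3 chemokines in A549. IL1B was at 101 rpkM in HBE LIEA, 106 in HBE Smart-seq2 and 0.964 in A549, 105-fold (48.1 to 288). IL24 had 118 reads in HBE and none in A549, and 163 rpkM in HBE Smart-seq2. IL11 was at 70.2 rpkM in HBE LIEA and 2.63 in A549, and the 12.6 of HBE Smart-seq2 lay slightly nearer to A549. CXCL5, a neutrophil chemokine, was at 26.8 rpkM in A549 and 0.349 in HBE, 76.8-fold (29.7 to 284). Of 31 interferon response and antigen presentation genes, 5 were higher in HBE and 3 in A549, beside 7.36% and 9.54% over all genes. IFITM1 and IFITM3, membrane proteins that restrict viral entry, were at 266 and 795 rpkM in HBE and 14.8 and 81.4 in A549. IFI16, a DNA sensor, had 315 reads in HBE and 19 in A549. Except for CD74, IFITM1 had the largest ratio of this list.

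S100 and annexin genes were split, with 8 of 24 higher in A549 and 5 in HBE. S100A8 and S100A9, the calprotectin subunits, were in the HBE group, S100A9 with 295 reads against 2, a ratio of 133 (36.5 to 1104), and 397 rpkM in HBE Smart-seq2. ANXA2 was the most abundant member, at 1750 rpkM in A549 and 427 in HBE, 4.09-fold (3.94 to 4.26). Of its transcript, 24.1% is shared with the copy ANXA2P2.

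Growth signalling genes differed in single members. Of 28 kept growth factors and receptors, 6 were higher in A549 and 4 in HBE. FGFR1 and FGFR4, fibroblast growth factor receptors, were at 40.8 and 39.3 rpkM in A549 and 0.692 and 1.39 in HBE, 58.9-fold (37.5 to 98.3) and 28.4-fold (15.2 to 59.9). IGFBP4, a binding protein of insulin-like growth factors, was at 862 and 63.9 rpkM. The HBE group held the ligands HBEGF, TGFA and VEGFA, and IGFBP7. EGFR, looked up for its place in lung cancer after the list had been seen, was at 71.1 rpkM in HBE and 27.0 in A549. Of 13 kept genes for ephrins and Eph receptors, none was at least 4-fold higher in A549 and 2 were in HBE. These counts stand beside 9.54% and 7.36% over all genes. The receptor gene EPHA1, with 542 reads in HBE LIEA and 0 in A549, was at least 163-fold higher in HBE. In the TGF-beta, BMP and WNT list, 8 of 28 were higher in A549 and 5 in HBE. BMP4 was at 107 rpkM in A549 and 1.34 in HBE, 79.8-fold (45.5 to 155), and WNT10A had 119 reads in HBE and none in A549. Of 23 kept YAP target genes, 2 were higher in A549 (CTGF and ANKRD1) and 4 in HBE. F3, tissue factor, was at 95.9 rpkM in HBE LIEA, 1285 in HBE Smart-seq2 and 2.11 in A549, 45.4-fold (29.5 to 73.6).

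Metallothioneins, small proteins that bind zinc and copper, were lower in A549. None of the 9 kept genes of the list had a ratio above 0, and 4 were at least 4-fold higher in HBE. MT2A was at 1358 rpkM in HBE LIEA, 597 in HBE Smart-seq2 and 76.4 in A549, 17.8-fold (14.9 to 21.3), and MT1X at 147, 145 and 45.3. MT1E had 947 reads in HBE and none in A549, at least 285-fold higher. Copies share sequence, 21.4% for MT2A and 13.7% for MT1E. MTF1, their transcriptional activator, differed by 1.76-fold. Of 41 lysosomal genes, 5 were higher in A549, 4 of them cathepsins, which is near the 9.54% over all genes. CTSF had 503 reads in A549 and 2 in HBE, a ratio of 279 (76.8 to 2309), and CTSL was at 449 rpkM in A549, 45.7 in HBE LIEA and 148 in HBE Smart-seq2. CTSH was higher in HBE.

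Genes of growth and division differed little. None of 46 DNA replication genes reached 4-fold, but 40 of the 46 had a ratio below 0, with a median of -0.59 beside -0.15 over all genes. RRM1, a subunit of ribonucleotide reductase, was at 84.8 rpkM in HBE and 21.9 in A549, 3.88-fold (3.41 to 4.42), whereas PCNA, the sliding clamp, was 1.95-fold higher in A549. Of 47 mitosis genes, CDC25B, a phosphatase that activates cyclin-dependent kinase, was 5.16-fold higher in A549 and NDC80, a kinetochore protein, 4.26-fold higher in HBE. In a list of cell cycle inhibitors, G1 cyclins and other genes, 18 were kept. CCND3 was 6.58-fold (5.88 to 7.39) higher in A549, and CCND2, CDK6 and CCNE2 were higher in HBE. MTAP, an enzyme of methionine salvage, had 43 reads in A549 and 2 in HBE, a ratio of 23.8 (6.21 to 203), with Smart-seq2 nearer to A549. Replication-dependent histone genes, whose mRNAs mostly lack a polyA tail, had 13 of 24 higher in A549 and 3 in HBE. A log2 rpkM of 1 was reached by 10 of the 24 in HBE and by 19 in A549, so these counts follow in part from the filter. HIST1H1C, a linker histone, had 95 reads in A549 and 2 in HBE LIEA, but HBE Smart-seq2, at 18.7 rpkM, was nearer to the 31.2 of A549. For 12 of the 16 genes that were at least 4-fold apart, Smart-seq2 was nearer to HBE LIEA. Summed over the list, genes not kept included, A549 LIEA had 271 rpkM, HBE LIEA 76.1 and HBE Smart-seq2 294.

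Core metabolism and protein turnover were close to the median of all genes. No gene of 77 mitochondrial ribosomal proteins or 41 proteasome subunits reached 4-fold. Of 84 cytosolic ribosomal protein genes, 2 did, RPL39L and RPS27L, both higher in A549, and the most abundant, RPS16, was at 4943 rpkM in A549 and 2173 in HBE. For RPS27L, HBE Smart-seq2, at 41.8 rpkM, was nearer to the 66.6 of A549 than to the 14.2 of HBE LIEA. Of 78 respiratory chain and ATP synthase genes, 1 reached 4-fold, the testis-type subunit COX6B2, at 35.5 rpkM in HBE and 1.59 in A549. The medians of these lists lay between -0.15 and -0.07, and they turn above 0 when ratios are centred on the median gene. In glycolysis, HK2, an inducible hexokinase, stood out at 35.5 rpkM in HBE LIEA, 38.6 in HBE Smart-seq2 and 0.272 in A549, 131-fold (66.2 to 304). Of 36 cholesterol and fatty acid genes, FADS2, a desaturase, was at 231 rpkM in A549 and 19.7 in HBE, and ELOVL6, an elongase, 6.26-fold higher in HBE. In the amino acid response list, SLC7A5, the large neutral amino acid transporter, had 37029 reads (1770 rpkM) in HBE and 5300 (281 rpkM) in A549, 6.30-fold (6.12 to 6.49), and DDIT4, an inhibitor of the growth kinase mTOR, was 6.33-fold higher in HBE. HSPA2, a testis-enriched chaperone, was at 162 rpkM in A549 and 4.86 in HBE, 33.4-fold (25.9 to 43.7), in a chaperone list whose median was -0.14.

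In the SWI/SNF chromatin remodelling list, 1 of 22 kept genes reached 4-fold. SMARCA4, the ATPase BRG1 that A549 is known to lack as protein, was at 75.6 rpkM in HBE LIEA, 19.5 in HBE Smart-seq2 and 3.75 in A549, 20.1-fold (14.9 to 27.8). Its paralog SMARCA2 was at 8.89 rpkM in A549 and 4.32 in HBE, 2.06-fold (1.63 to 2.60). Of 257 kept zinc finger genes, 21 were higher in HBE and 4 in A549, with a median log2 ratio of -0.44. Over all genes 7.36% were higher in HBE and 9.54% in A549, so the count for HBE was close to the background. ZNF215 had 79 reads in HBE and 1 in A549, and ZNF28, on chromosome 19, 70 against none. Cancer-testis antigens were sparse, with 7 kept and 3 higher in each line. PRAME, an antigen of many tumours, had 883 reads in A549 and was listed in neither HBE library, at least 326-fold higher. CTAGE8 and CTAGE9, which were higher in HBE, share 99.2% and 100% of their transcripts with the copy CTAGE15.

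**Figure D4:**
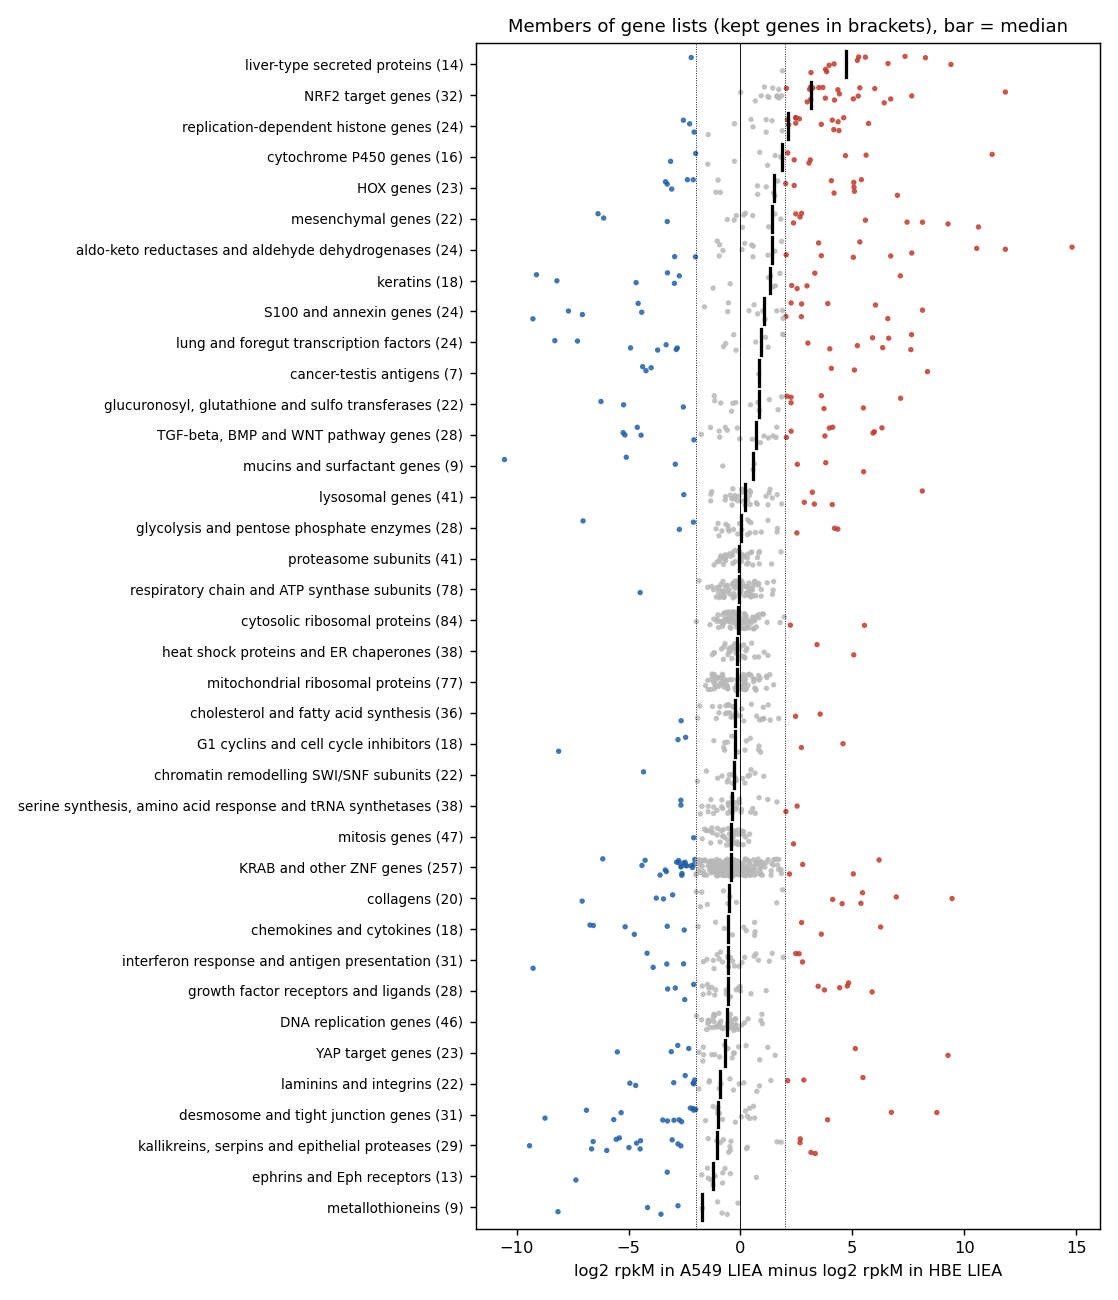
Each point is a kept member of a gene list (number of kept genes in brackets), placed by its log2 rpkM in A549 LIEA minus that in HBE LIEA, with red and blue for at least 4-fold and a black bar for the median. Medians run from 4.70 for liver-type secreted proteins and 3.13 for NRF2 targets to -1.70 for metallothioneins, while ribosomal, respiratory and proteasome genes crowd around 0. All kept liver-type genes but C3 passed the filter through A549 alone, which fixes their direction.

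Gene length and GC content moved with the ratio over all kept genes. The median log2 ratio was 0.21 for transcripts below 1000 nucleotides and -0.36 for those of 8000 and over. By GC content it was -0.31 below 40%, -0.03 from 50 to 55% and -0.23 at 60% and over. The share of genes at least 4-fold higher in A549 went from 4.97% below 40% GC to 12.6% at 60% and over, and that of genes higher in HBE from 4.71% to 10.1%. The part of GC content and length in the differences of genes and lists was not tested.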

How the data were processed

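Gene expression of the A549 and HBE cell lines was measured by LIEA, with 18 PCR cycles and Ion Torrent sequencing, and of HBE also by Smart-seq2 with Illumina sequencing. For each library the authors mapped reads to RefSeq-RNA with FANSe2, merged splice variants and deposited log2 rpkM values per gene. As the study's methods state, Ion Torrent reads longer than 42 nt were kept and mapped with up to 3 errors, and Illumina reads that passed the instrument's filter with up to 2.

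Reads per gene were recovered here from the steps of the rpkM values, and came out whole (relative tolerance 5e-10) for all 18856 genes, adding up to 96.7 to 97.4% of the totals. For 932 genes the read number was settled only up to a whole factor by the annotated or most frequent lengths. On simulated data of the A549 and HBE LIEA comparison, 99.6% of 17772 genes were recovered exactly, 100 of 100 kept genes raised 8-fold and 90 of 91 lowered 8-fold were called, and 9 of 11605 unchanged genes. The simulated reads were Poisson draws without PCR copies or variation between cultures, and most genes were given their true length. These figures therefore check the calculation and give no error rate for the genes called in the real libraries.

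The members and gene lists were chosen with earlier results of these data known. Named were, in each direction, the 25 kept genes with the largest ratio and at least 50 reads, for each of 47 lists up to 4 members of largest ratio and the one of highest rpkM, the 3 genes of highest rpkM per library, GAPDH and ACTB. Other list members named in the text were chosen after their values were seen. Some genes that the rule names are not reported here. Genes of the Y chromosome, XIST and rows whose symbol had become a date were not named. They stayed in the counts over all genes, apart from 4 rows per library with a duplicated date symbol, which were left out. With 1 library per group no test was made. Alternatives were other scalings, filters, folds, a pseudocount of 1, a floor of 1 read and calls by counting interval. Shared sequence was searched with blastn 2.17.0 among GENCODE 44 transcripts (GRCh37), at 95% identity over at least 50 nt. Values were computed in Python 3.11.15 with pandas 2.3.3, intervals with scipy 1.17.1 on numpy 2.4.6, and plots were drawn with matplotlib 3.10.9.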

Additional observations from a re-analysis of the deposited data

How the results depend on the processing

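No paired analysis was possible because each group held 1 library, and for the same reason no replicate could be left out. Of 2028 values recomputed under alternatives, 1686 stayed within the limits set (1.5 times for a count, the spread of its members or intervals for other values) and 341 moved beyond them. In 1 value with a main log2 ratio or median of at least 2 the sign turned. The counts of genes at least 4-fold higher, 1155 in A549 and 891 in HBE, were 290 and 237 when both libraries had to reach a log2 rpkM of 1, 2263 and 2466 with a 2-fold limit, and 704 and 512 with an 8-fold limit. With a counting interval past 2-fold, 1545 and 1454 genes were called. The share of called genes whose Smart-seq2 value was nearer to HBE LIEA was 83.1% in all, 91.3% for A549 and 72.5% for HBE. In the same order it was 76.3, 85.2 and 65.4% with both libraries at a log2 rpkM of 1, 72.7, 82.5 and 63.7% with 2-fold, and 87.3, 94.0 and 78.1% with 8-fold. It was 77.3, 88.0 and 66.0% with the counting interval, 80.8, 93.1 and 67.9% with TPM, and 80.3, 88.7 and 68.4% without a filter. With log2(rpkM + 1) the share for A549 was 93.2%.

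The median of the liver-type secreted proteins turned from 4.70 to -2.20 with the filter on both libraries, which left C3 alone. The same filter turned the foregut transcription factors from 0.90 to -0.20. Without a filter the mucins went from 0.56 to -0.35 and the cancer-testis antigens from 0.82 to -1.31. Centring on the median gene moved every log2 ratio by 0.17 and TPM by -0.16, which turned the sign of list medians close to 0. The fold changes have no replicate error, and genes below 10 reads in the higher library, 24 of those called, carry wide counting intervals.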

Other observations

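The median log2 ratio of A549 over HBE differed between chromosomes. It was 0.39 over 771 kept genes of chromosome 17, 0.38 over 401 genes of chromosome 8, 0.19 over 799 genes of chromosome 2 and 0.18 over 399 genes of chromosome 15. At the other end it was -0.67 over 116 genes of chromosome 21, -0.63 over 391 genes of chromosome 4, -0.61 over 165 genes of chromosome 18 and -0.60 over 699 genes of chromosome 11. Genes of a chromosome are not independent, and with 1 library per line these medians are given as a description.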
